A study of Homo sapiens with 4 samples.

Results

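The genes of the Hippo pathway examined here were the co-activator genes *YAP1* and *WWTR1* (which encodes TAZ), the transcription factor genes *TEAD1*, *TEAD2*, *TEAD3* and *TEAD4*, the kinase genes *LATS1* and *LATS2*, and *AMOTL2* and *ANKRD1*, which are targets of the pathway. These 10 genes were picked by name from the 63677 genes of the count table, each found by its Ensembl identifier, and all 10 had enough counts to be tested. LX-2, an established human hepatic stellate cell line, was transfected with 20 nM of a miR-6133-5p mimic or of the negative control mimic miControl. All cells received 5 ng/mL of rhTGF-β1 24 h after transfection, and RNA was taken 24 h after that. There were 2 libraries per group, with 51862006 and 57903388 counts for miControl and 61747010 and 93811213 counts for miR-6133-5p. The comparison of miR-6133-5p with miControl asks how the mimic changes the RNA of rhTGF-β1-treated cells, and there was no library of cells without a mimic or without rhTGF-β1 among those used.

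In the Hippo pathway, a cascade of kinases ends in LATS kinases, which phosphorylate YAP and TAZ and keep them in the cytoplasm, where they can be degraded. Unphosphorylated YAP and TAZ enter the nucleus, bind TEAD factors on DNA and switch on genes for growth, matrix and the cytoskeleton. Some of these targets, *LATS2* and *AMOTL2* among them, feed back to restrain YAP and TAZ. In hepatic stellate cells YAP is known as a driver of activation. Much of this control acts on proteins and their place in the cell, which RNA counts do not show.

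The mimic is named for the 5′ arm of miR-6133, and its place in the hairpin was not checked, as no mature sequence was among the references used. MIR6133 encodes the hairpin from which miR-6133 is cut. RefSeq places it on GRCh38.p14 at chr7:133290881-133290988 on the plus strand, with 108 bases.
MIR6133 hairpin: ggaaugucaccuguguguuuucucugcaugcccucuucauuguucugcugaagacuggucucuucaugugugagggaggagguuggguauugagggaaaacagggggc

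Marker genes of broad cell types were read to describe the cells, and they cannot identify a cell line. Of 7 stellate or mesenchymal markers, 5 were above 1 CPM, the usual count scale set by library totals times their TMM factors, in every library, while *DES* and *LRAT* were near 0. *COL1A1* had the highest CPM of them in miControl (3112 and 2723) and *VIM* in miR-6133-5p (2030 and 1555, against 1853 and 1776 in miControl). Their summed level was 5110 and 4630 CPM in the miControl libraries and 3100 and 2770 CPM in the miR-6133-5p libraries. *COL1A1*, *COL1A2* and *ACTA2* were lower in both miR-6133-5p libraries, while the groups overlapped for *VIM* and *PDGFRB*. Of the hepatocyte markers, *TTR* had 0 counts in every library and *ALB* reached at most 0.0605 CPM, and the 5 markers summed to between 2.01 and 2.84 CPM with *SERPINA1* the most abundant. The 3 endothelial markers matched summed to at most 2.99 CPM, led by *KDR*, and the 4 leukocyte markers to at most 2.34 CPM, led by *CD14*. The 4 biliary or other epithelial markers summed to 3.70 and 4.59 CPM in miControl and 6.82 and 7.32 CPM in miR-6133-5p, nearly all from *KRT7*, with *EPCAM* at no more than 0.0407 CPM. The part of these marker levels in the results was not tested.

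Of the co-activator genes, *WWTR1* was lower with miR-6133-5p at the adjusted p threshold, while *YAP1* had more counts in both miR-6133-5p libraries but missed that threshold. *YAP1*, on chromosome 11 from 101981178 to 102104155 (GRCh37, plus strand), had 90.4 and 99.1 CPM in the miControl libraries and 122 and 126 CPM in the miR-6133-5p libraries. Both miR-6133-5p libraries lay above both miControl libraries, with a gap wider than the spread within either group. *WWTR1*, on chromosome 3 from 149235022 to 149454501 (minus strand), had 52.2 and 54.5 CPM in miControl and 31.2 and 30.6 CPM in miR-6133-5p. Here both miR-6133-5p libraries were the low ones, and the groups did not overlap. In these bulk libraries, fewer cells with an RNA and less of that RNA per cell cannot be told apart.

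Differences were tested with edgeR's quasi-likelihood test over 18252 genes, and a gene was called lower or higher at an adjusted p below 0.01 and a log2 fold change beyond 0.8. *WWTR1* had a log2 fold change of -0.79 (SE, the standard error, 0.102, edgeR adjusted p = 7.4e-05), lower at the adjusted p threshold and just short of the fold threshold. With the RLE factors used by DESeq2 its log2 fold change was -0.80 and it was called lower (edgeR adjusted p = 6.1e-05), while with library totals alone it was -0.63 (edgeR adjusted p = 0.000404), further from the fold threshold. Over 11 alternatives its edgeR or DESeq2 adjusted p ran from 4.18e-10 to 0.0045. These 11 of the 13 alternatives leave out glmTreat, in which *WWTR1* had an adjusted p of 1, and the looser adjusted p threshold, which leaves p as it is. *YAP1* had a log2 fold change of 0.39 (95% interval 0.16 to 0.61, edgeR adjusted p = 0.0122) and missed the adjusted p threshold. Its edgeR or DESeq2 adjusted p was below 0.01 in 6 of these 11 alternatives and ran from 0.00105 to 0.217. With the replicate number as a block it passed (edgeR adjusted p = 0.00321). Nothing in the sources says that the replicates came from separate cultures, so these p-values measure the spread between these samples, which may be technical.

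**Figure D1:**
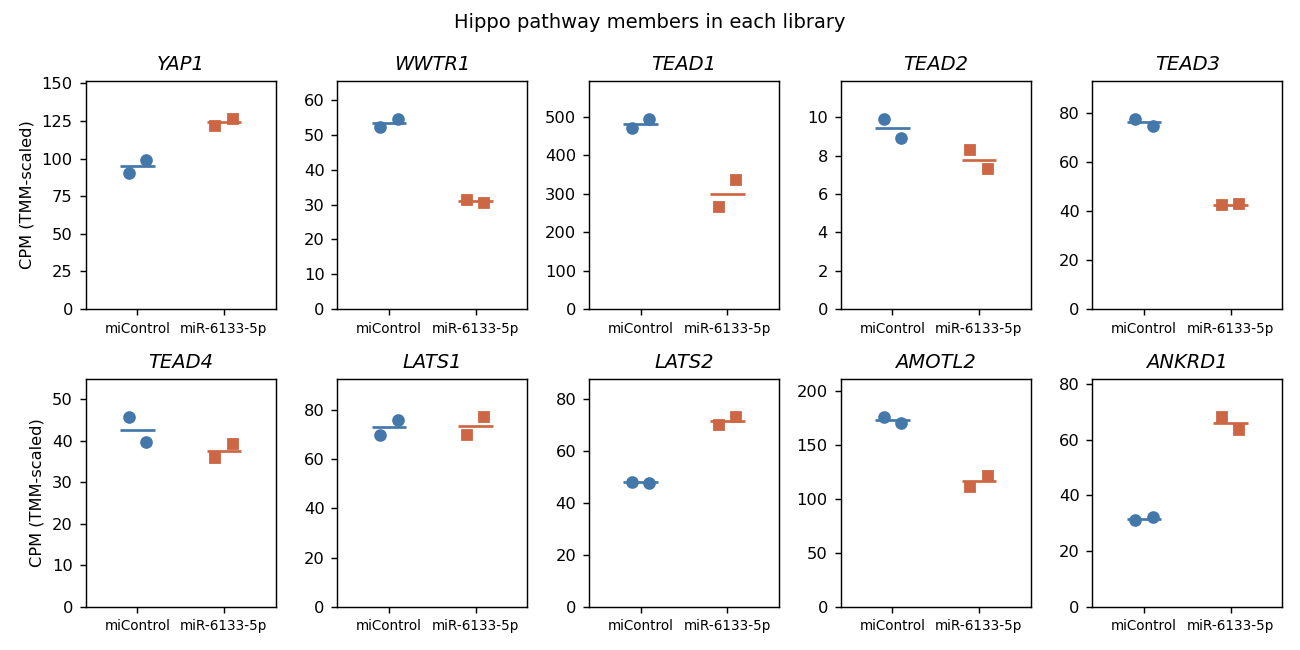
Level of each of the 10 genes in each library, in TMM-scaled CPM on axes that start at 0, with miControl as blue circles, miR-6133-5p as orange squares and a line at each group's mean. *LATS1* has overlapping groups, and the other 9 genes, with *ANKRD1* picked for its direction, do not. Over all tested genes, the groups did not overlap for 31.3% (lower) and 33.2% (higher).

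The ratio of *WWTR1* to *YAP1* within a library does not depend on how libraries are scaled against each other. Per kilobase of merged exons, there were 0.436 and 0.415 *WWTR1* counts for each *YAP1* count in miControl and 0.194 and 0.183 in miR-6133-5p. The ratio in the miR-6133-5p libraries was 0.442 of that in miControl (0.426 ± 0.0149 and 0.188 ± 0.00749, SD, n = 2), and the groups were apart by far more than their spread. With 2 libraries against 2, an exact permutation test cannot go below p = 0.333, so no p is given for such ratios. Exons of other genes on the opposite strand cover 10.1% of the merged exons of *YAP1* and 9.05% of those of *WWTR1* (the antisense gene *WWTR1-AS1*), and the strand setting of the counting was not given in the sources used here, so reads of such overlaps cannot be told apart.

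Among the TEAD genes, whose products carry YAP and TAZ to DNA, *TEAD3* was the 1 gene called lower. Of all tested genes, 5.54% were called lower. *TEAD3*, on chromosome 6 from 35441374 to 35464856 (minus strand), had 77.5 and 74.8 CPM in miControl and 42.3 and 42.9 CPM in miR-6133-5p. Its miR-6133-5p libraries were close to each other and far below both miControl libraries. The log2 fold change was -0.84 (SE 0.100, edgeR adjusted p = 3.66e-05). The fold was close to the threshold: scaled by library totals alone the log2 fold change was -0.67, short of 0.8, and glmTreat, which tests against 0.8 itself, did not call it.

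*TEAD1*, on chromosome 11 from 12695968 to 12966284 (plus strand), had 470 and 494 CPM in miControl and 266 and 335 CPM in miR-6133-5p. Both miR-6133-5p libraries were lower than both miControl libraries, though they differed from each other more than the miControl libraries did. The log2 fold change was -0.68 (SE 0.121, edgeR adjusted p = 0.000852), lower at the adjusted p threshold but short of 0.8. Without miR-6133-5p replicate 2 it was -0.87 and *TEAD1* was called lower, and without miR-6133-5p replicate 1 it was -0.54. Without miControl replicate 1 or 2 *TEAD1* missed the adjusted p threshold (edgeR adjusted p = 0.0265 and 0.0228, with edgeR or DESeq2 values from 1.1e-10 to 0.0265 over the 11 alternatives).

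*TEAD4*, on chromosome 12 from 3068496 to 3149842 (plus strand), had 45.7 and 39.6 CPM in miControl and 35.7 and 39.2 CPM in miR-6133-5p. The groups nearly touched. Its log2 fold change of -0.19 (95% interval -0.43 to 0.056, edgeR adjusted p = 0.24) did not pass. *TEAD2*, on chromosome 19 from 49843852 to 49865714 (minus strand), had the fewest counts of the 10 genes, with 9.91 and 8.94 CPM in miControl and 8.27 and 7.30 CPM in miR-6133-5p. Its libraries were also lower with the mimic by a narrow gap, and its log2 fold change of -0.28 (95% interval -0.58 to 0.024, edgeR adjusted p = 0.156) did not pass. Exons of *CD37* on the opposite strand cover 10.7% of those of *TEAD2*.

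Shares of the summed TEAD counts per kilobase show how these genes stood to each other within a library. *TEAD1* held 47.3% and 50.7% in miControl and 43.4% and 48.1% in miR-6133-5p, and these groups overlapped. *TEAD3* held 27.4% and 26.9% in miControl and 24.3% and 21.6% in miR-6133-5p. *TEAD4* held 21.7% and 19.1% in miControl and 27.4% and 26.5% in miR-6133-5p. The share of *TEAD3* was thus lower and that of *TEAD4* higher in both miR-6133-5p libraries. *TEAD2* held 3.58% and 3.29% in miControl and 4.85% and 3.77% in miR-6133-5p, also higher in both. A share depends on the other genes of the sum, and in CPM neither *TEAD4* nor *TEAD2* was higher with miR-6133-5p.

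**Figure D2:**
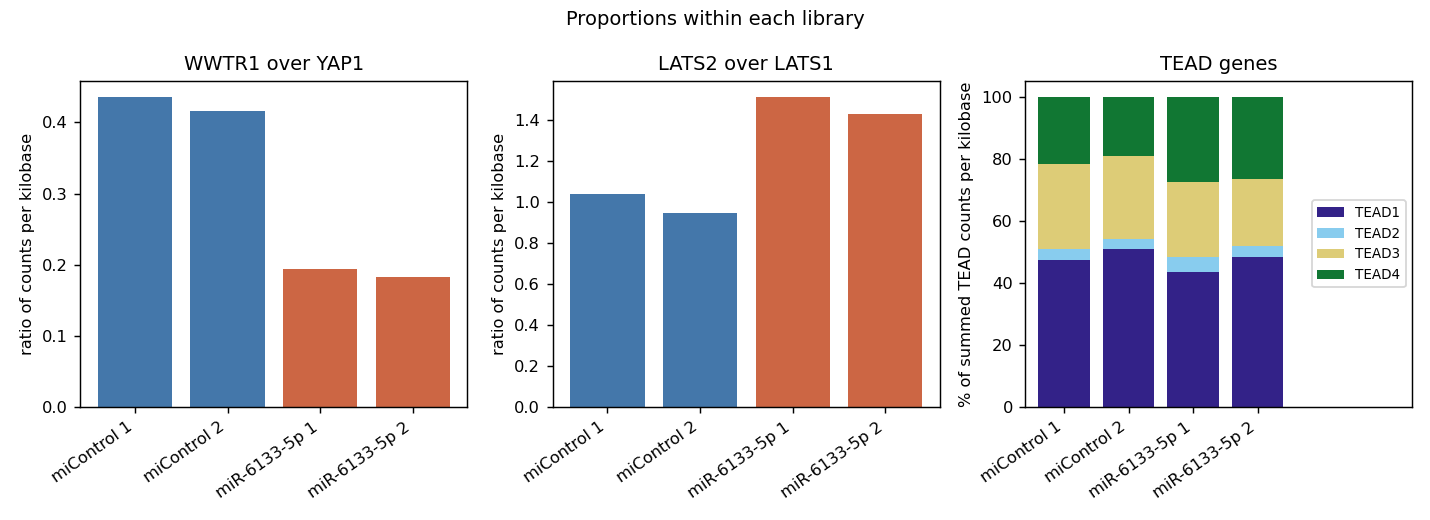
Ratios of *WWTR1* to *YAP1* and of *LATS2* to *LATS1*, and shares of the TEAD genes, in each of the 4 libraries, from counts per kilobase of merged exons. The ratio of *WWTR1* to *YAP1* runs from 0.415 to 0.436 in miControl and from 0.183 to 0.194 in miR-6133-5p.

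Of the LATS kinase genes, *LATS2* was higher at the adjusted p threshold and *LATS1* did not pass it. *LATS1*, on chromosome 6 from 149979289 to 150039241 (minus strand), had 69.9 and 75.9 CPM in miControl and 69.9 and 77.1 CPM in miR-6133-5p. The groups covered the same range. Its log2 fold change was 0.01 (95% interval -0.21 to 0.24, edgeR adjusted p = 0.95), an interval that lies inside the fold threshold on both sides.

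*LATS2*, on chromosome 13 from 21547175 to 21635725 (minus strand) and itself a YAP/TAZ target, had 48.0 and 47.5 CPM in miControl and 70.0 and 73.0 CPM in miR-6133-5p. Both miR-6133-5p libraries were high, with no overlap and little spread in either group. The log2 fold change was 0.58 (SE 0.0999, edgeR adjusted p = 0.000678), higher at the adjusted p threshold but short of 0.8. It missed the adjusted p threshold without miControl replicate 1 or 2 (edgeR adjusted p = 0.0307 and 0.0289, with edgeR or DESeq2 values from 5.9e-06 to 0.0307 over the 11 alternatives). Within a library, the ratio of *LATS2* to *LATS1* per kilobase was 1.04 and 0.947 in miControl and 1.52 and 1.43 in miR-6133-5p, higher in both miR-6133-5p libraries. Where the ratio stands to 1 in miControl depends on the lengths used.

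*AMOTL2*, on chromosome 3 from 134074189 to 134094321 (minus strand), encodes an angiomotin that binds YAP and is switched on by it. It had 176 and 170 CPM in miControl and 111 and 121 CPM in miR-6133-5p. Both miR-6133-5p libraries were low and the groups did not overlap. The log2 fold change was -0.57 (SE 0.103, edgeR adjusted p = 0.000965), lower at the adjusted p threshold and short of 0.8. *AMOTL2* too missed the adjusted p threshold without miControl replicate 1 or 2 (edgeR adjusted p = 0.0372 and 0.0153, with edgeR or DESeq2 values from 2.04e-06 to 0.0372 over the 11 alternatives).

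*ANKRD1*, on chromosome 10 from 92671853 to 92680844 (minus strand), encodes an ankyrin repeat protein of muscle and stressed cells and is a widely used YAP/TAZ readout. It was picked for going against other targets, so its values are a description and carry no test. It had 31.0 and 32.1 CPM in miControl and 68.2 and 63.5 CPM in miR-6133-5p. Its log2 fold change was 1.06 (SE 0.103). Both miR-6133-5p libraries lay far above both miControl libraries. Per kilobase, *ANKRD1* stood at 0.638 and 0.684 of *AMOTL2* in miControl and at 2.22 and 1.89 times *AMOTL2* in miR-6133-5p. Of its relatives, *ANKRD2* had too few counts to be tested and *ANKRD23*, at 0.477 to 0.612 CPM, had a log2 fold change of 0.09 with a wide 95% interval of -0.79 to 0.96 (edgeR adjusted p = 0.903). Exons of *ANKRD39* on the same strand cover 73.8% of those of *ANKRD23*.

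**Figure D3:**
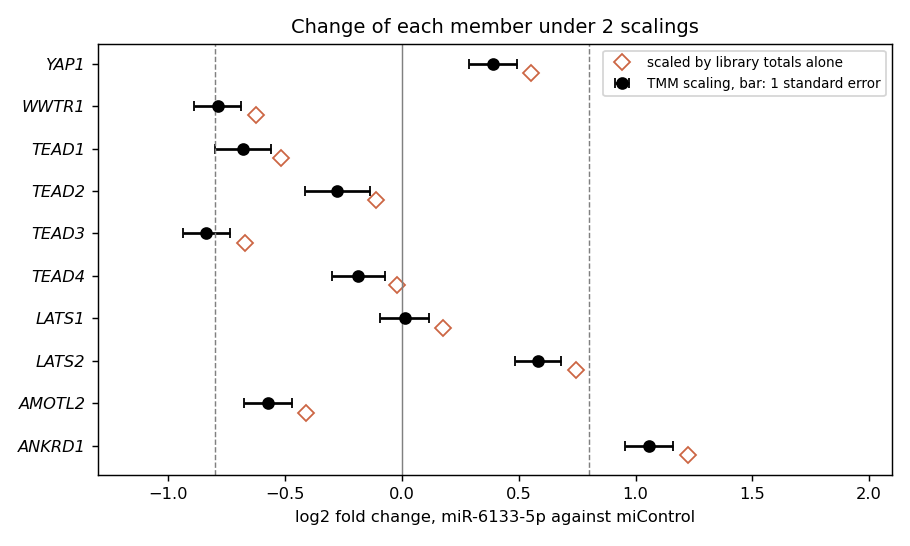
Log2 fold change of miR-6133-5p against miControl for each of the 10 genes, with 1 standard error, under TMM scaling (black) and with libraries scaled by their totals alone (open diamonds), and dashed lines at 0.8 on either side of 0. Scaling by totals moves every gene up, and *TEAD3* from -0.84 to -0.67.

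Counted over the 9 genes other than *ANKRD1*, 1 was called lower and 0 higher with edgeR, against 5.54% of all tested genes called lower and 2.90% called higher. With DESeq2 these counts were 2 and 0, against 5.62% and 2.66%, and at an unadjusted edgeR p of 0.05 they were 4 and 2, against 20.3% and 20.0%. At the adjusted p threshold with a difference of any size, 4 of the 9 were lower (*WWTR1*, *TEAD1*, *TEAD3* and *AMOTL2*) and 1 was higher (*LATS2*), where 10.9% of all tested genes were lower and 7.96% higher. Without miControl replicate 1 these counts were 2 and 0, where 4.27% and 1.56% of the genes tested in that fit passed, and without miControl replicate 2 they were also 2 and 0, where 5.63% and 2.52% passed. The number called lower was 2 without miControl replicate 1, miR-6133-5p replicate 1 or miR-6133-5p replicate 2, where between 3.95% and 6.53% of tested genes were. The libraries of the groups did not overlap for 8 of the 9, with 6 lower and 2 higher, against 31.3% and 33.2% of all tested genes. The median log2 fold change of the 9 was -0.28 and that of all tested genes 0.03. Scaling by library totals alone moved the median of the 9 to -0.11 and that of all tested genes by 0.16 to 0.19, so directions are given relative to the other genes.

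Levels of different genes were compared per kilobase of merged exons. In miControl, *TEAD1* was highest at 45.1 ± 1.62 CPM per kilobase (SD, n = 2), followed by *AMOTL2* at 26.7 ± 0.655 and *TEAD3* at 25.0 ± 0.640. *TEAD4* at 18.8 ± 1.92 and *ANKRD1* at 17.6 ± 0.431 CPM per kilobase overlapped, and *YAP1* came next at 15.0 ± 0.980. *LATS1* at 8.58 ± 0.504 and *LATS2* at 8.51 ± 0.0592 CPM per kilobase could not be ordered by this length, and *WWTR1* at 6.39 ± 0.195 and *TEAD2* at 3.16 ± 0.229 closed the order. In miR-6133-5p, *ANKRD1* was highest at 36.8 ± 1.88 CPM per kilobase, above *TEAD1* at 28.1 ± 4.57 and *YAP1* at 19.7 ± 0.482. *AMOTL2* at 18.0 ± 1.09 and *TEAD4* at 16.5 ± 1.08 CPM per kilobase overlapped, and *TEAD3* had moved down to 14.0 ± 0.132, next to *LATS2* at 12.7 ± 0.383. *LATS1*, *WWTR1* and *TEAD2* were lowest, at 8.65 ± 0.607, 3.70 ± 0.0567 and 2.61 ± 0.230 CPM per kilobase. Parts of this order depend on the length. With that of the canonical transcript instead, *WWTR1* came before *LATS1* and *LATS1* (9.90 ± 0.581) before *LATS2* (8.61 ± 0.0599) in miControl, *TEAD4* overlapped *TEAD3* and not *ANKRD1*, and *ANKRD1* overlapped *YAP1*. In miR-6133-5p *ANKRD1* then overlapped *TEAD1*, and *AMOTL2*, *YAP1* and *TEAD4* overlapped each other.

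**Figure D4:**
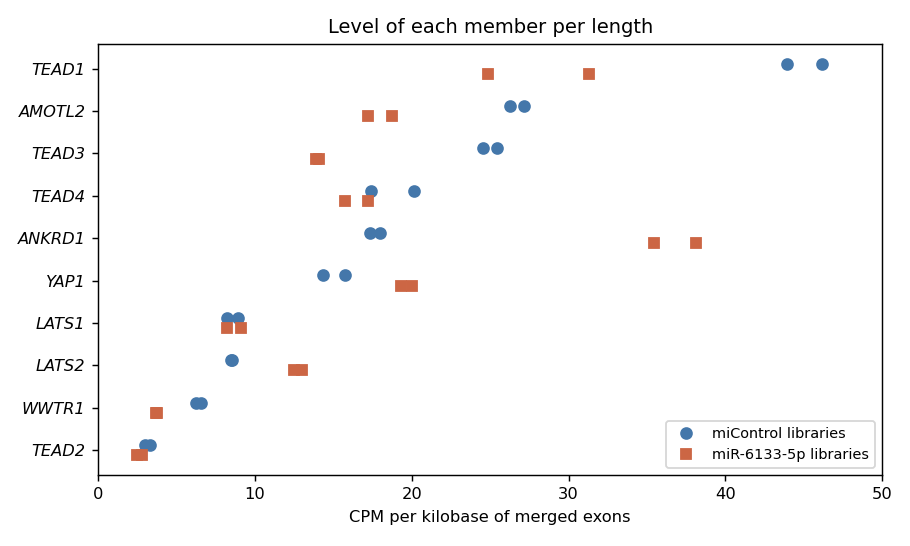
Level of each gene in CPM per kilobase of merged exons in the 2 miControl (blue circles) and 2 miR-6133-5p libraries (orange squares), in the order of the miControl means. *ANKRD1* moves from 17.6 to 36.8 and *TEAD1* from 45.1 to 28.1.

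The rest of the pathway was read from a list of 56 other Hippo genes, of which 54 had enough counts to be tested. Of these, 2 were called lower, 2 higher and 50 neither, against 5.54% and 2.90% of all tested genes. The number called lower was 5 without miR-6133-5p replicate 2 and 1 with library totals alone, where 6.53% and 3.88% of tested genes were. At the adjusted p threshold with any size, 8 were lower and 4 higher, against 10.9% and 7.96% of all tested genes. These counts were 3 and 2 without miControl replicate 1 (4.27% and 1.56% of tested genes) and without miControl replicate 2 (5.63% and 2.52%), and 14 and 5 without miR-6133-5p replicate 2 (14.4% and 10.6%). The median log2 fold change of the 54 was -0.11, where that of all tested genes was 0.03. With library totals alone these medians were 0.06 and 0.19. This scaling moves all genes about alike, so it cannot check the order of the medians, and their difference was not tested.

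*VGLL3*, whose product competes with YAP and TAZ for TEAD factors, had 245 and 270 CPM in miControl and 78.8 and 90.1 CPM in miR-6133-5p. Both miR-6133-5p libraries were far below, with a log2 fold change of -1.61 (SE 0.113, edgeR adjusted p = 4.51e-07), and the call held in all 13 alternatives. *NF2*, which encodes merlin, an activator of LATS kinases, had 259 and 258 CPM in miControl and 142 and 143 CPM in miR-6133-5p. It was lower in both libraries, with a log2 fold change of -0.86 (SE 0.101, edgeR adjusted p = 3.05e-05), and was not called with library totals alone or with glmTreat.

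The 14-3-3 proteins, encoded by YWHA genes, hold phosphorylated YAP in the cytoplasm. Of the 6 tested YWHA genes, *YWHAG* was lower at the adjusted p threshold (-0.47, edgeR adjusted p = 0.003), 4 did not pass it and *YWHAB* was called higher. Over all tested genes, 10.9% were lower and 7.96% higher at that threshold, and 2.90% were called higher. *YWHAB* had 225 and 227 CPM in miControl and 523 and 464 CPM in miR-6133-5p. The groups were wide apart, with a log2 fold change of 1.12 (SE 0.107, edgeR adjusted p = 5.03e-06). *AJUBA*, which encodes a LIM protein that inhibits LATS kinases, had 80.0 and 80.8 CPM in miControl and 143 and 146 CPM in miR-6133-5p. Its log2 fold change was 0.84 (SE 0.100, edgeR adjusted p = 3.67e-05), and glmTreat called neither gene higher.

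The gene with the most counts in each of the remaining roles was not called. *FRMD6*, an upstream regulator of LATS kinases, had a log2 fold change of -0.61 and *AMOTL1*, which had more counts than *AMOT*, the other angiomotin gene of this list, one of -0.67, and both were lower at the adjusted p threshold (edgeR adjusted p = 0.000457 and 0.000912). Of the 12 upstream kinase and 3 kinase adaptor genes, edgeR and DESeq2 called 0. Over all tested genes, edgeR called 5.54% lower and 2.90% higher, and DESeq2 5.62% and 2.66%. At an unadjusted p of 0.05 in edgeR, 4 of these kinase and adaptor genes were lower and 1 higher (20.3% and 20.0% of all tested genes). *TNIK* was lower at the adjusted p threshold, as were 10.9% of all tested genes. The upstream kinase *MAP4K4* had a log2 fold change of -0.25 and the adaptor *MOB1A* one of -0.31. *PPP2CA*, of the STRIPAK phosphatase complex, had 0.22, *CSNK1D*, which marks YAP for degradation, had 0.23, and *YWHAZ* had -0.26 on the log2 scale. These 5 genes had edgeR adjusted p-values from 0.0377 to 0.178. Of the 4 listed genes for YAP degradation, *CSNK1D* among them, 3 did not pass the adjusted p threshold. The other, *FBXW11*, was lower at it, with a log2 fold change of -0.69 (edgeR adjusted p = 0.000199), as were 10.9% of all tested genes.

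Targets of YAP and TAZ were read from a published signature of 22 genes, 3 of which are described above. Of these 3, *AMOTL2* was lower and *LATS2* higher at the adjusted p threshold. *ANKRD1* had a log2 fold change of 1.06 with no test, since it was picked for going against other targets. Of the other 19, 18 were tested, 8 were called lower and 0 higher with edgeR, against 5.54% and 2.90% of all tested genes. At the adjusted p threshold 10 were lower and 0 higher, against 10.9% and 7.96%. With DESeq2 and with each other alternative, the number of the 18 called higher was also 0. At an unadjusted edgeR p of 0.05, 13 were lower and 0 higher, against 20.3% and 20.0%. Their median log2 fold change was -0.57, or -0.41 with library totals alone, and 16 of the 18 had a value below 0, as did 8702 of the 18252 tested genes. The highest of the 18 was 0.20. The signature was chosen with earlier results of these data known, so these counts are a description and not an independent test of the list.

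*CCN2*, which encodes connective tissue growth factor, had 1350 and 1339 CPM in miControl and 292 and 249 CPM in miR-6133-5p. Its log2 fold change was -2.31 (SE 0.114, edgeR adjusted p = 2.87e-08). Per kilobase, there were 33.3 and 31.9 *CCN2* counts for each *ANKRD1* count in miControl and 3.28 and 3.01 in miR-6133-5p. Since *ANKRD1* was picked for going against other targets, this ratio is a description. *IGFBP3*, an IGF binding protein gene, had a log2 fold change of -2.11, *TGFB2*, a TGF-β ligand gene, -1.55 and *FJX1* -1.50. *AXL*, a receptor tyrosine kinase gene, had -1.27 and *ASAP1* -1.22 on the log2 scale. *PTPN14* and *F3* were also called lower. *PTPN14* lost the call without miControl replicate 1, without miR-6133-5p replicate 1 and with glmTreat, and *F3* with glmTreat.

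**Figure D5:**
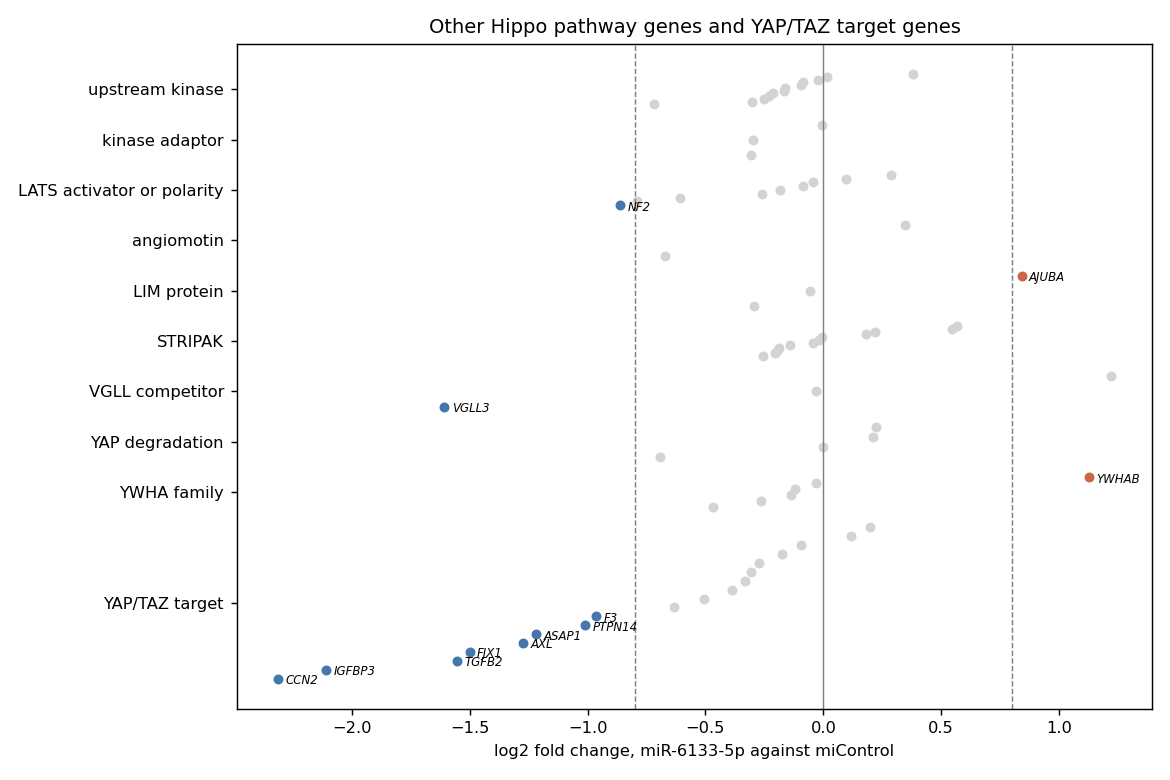
Log2 fold change of each tested gene of the Hippo list, by role, and of the other YAP/TAZ target genes, with genes called lower in blue, called higher in orange and not called in grey, and dashed lines at 0.8 on either side of 0. The called genes of the Hippo roles lie on both sides of 0, and the 8 called targets lie below it.

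The promoters of the targets that went different ways are shown here with the motif GGAATG, or CATTCC on the other strand, the core sequence that TEAD factors bind, in capitals. They run from 250 bases before to 50 bases after the gene start in RefSeq on GRCh38.p14, and 8 of the 10 genes were matched. *ANKRD1* (chr10:90921038-90921337, minus strand) holds it at 2 places, starting 220 and 128 bases before the gene start. *LATS2* (chr13:21061537-21061836, minus strand) holds it once, and *AMOTL2* (chr3:134375368-134375667, minus strand) does not hold these letters in the window.
ANKRD1 promoter: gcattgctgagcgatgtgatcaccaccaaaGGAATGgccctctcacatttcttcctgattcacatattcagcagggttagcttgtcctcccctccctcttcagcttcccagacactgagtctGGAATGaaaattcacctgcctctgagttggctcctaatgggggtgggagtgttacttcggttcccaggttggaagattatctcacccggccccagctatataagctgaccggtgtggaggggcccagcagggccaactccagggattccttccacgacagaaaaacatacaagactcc
LATS2 promoter: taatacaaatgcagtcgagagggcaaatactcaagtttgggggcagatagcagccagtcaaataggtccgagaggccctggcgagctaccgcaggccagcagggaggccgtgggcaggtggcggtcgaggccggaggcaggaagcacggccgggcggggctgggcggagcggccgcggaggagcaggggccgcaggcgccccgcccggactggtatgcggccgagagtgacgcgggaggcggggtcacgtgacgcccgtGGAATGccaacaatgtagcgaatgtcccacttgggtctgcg
AMOTL2 promoter: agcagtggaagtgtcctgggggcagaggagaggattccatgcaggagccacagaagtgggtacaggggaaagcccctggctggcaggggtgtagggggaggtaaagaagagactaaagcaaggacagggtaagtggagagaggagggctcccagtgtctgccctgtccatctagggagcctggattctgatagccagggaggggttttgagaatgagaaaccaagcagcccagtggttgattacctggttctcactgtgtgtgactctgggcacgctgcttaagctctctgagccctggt
Of the 8 matched genes, 3 hold the motif, *YAP1* being the other one, as do 5 of 13 matched target genes and 5 of 46 matched Hippo genes. Of all 35116 promoters of 300 bases, 14.0% hold it. Of the 5 target genes that hold it, *CCN2*, *TGFB2* and *PTPN14* were called lower, *NUAK2* was not called and *FOXF2* was not tested. Of the 8 that do not hold it, *F3*, *IGFBP3*, *FJX1* and *AXL* were called lower and the other 4 were not called, so calls fell on genes with and without the motif. A match is a description of the sequence and not of binding.

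The genes whose pattern was most like that of *ANKRD1* over the 4 libraries were *TMEM19*, *ARMCX6* and *KPNA2*, at distances of 0.0249, 0.0329 and 0.0466 in centred log2 CPM. For *YAP1* they were *RAD51B*, *NFX1* and *CCDC150*, at 0.0119, 0.0172 and 0.0224. For *WWTR1* they were *SMURF2*, *GNG12* and *SGK1*, at 0.0186, 0.0249 and 0.0341. With 4 libraries and 9463 candidate genes, such distances mainly reflect a like fold change.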

How the data were processed

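The authors aligned read pairs to GRCh37 with STAR 2.5.3a and deposited whole-number counts of reads per Ensembl gene, without normalization, as a table and as 1 file per library with identical values. Submitters' processing notes name featureCounts and Subread 1.6.4, and the annotation release and strand setting were not given in the sources used here. The aligner's summary deposited by the authors gives input read pairs and, as a fraction, those mapped to a unique place, between 0.965 and 0.968. There were 1.62 to 1.65 counts per input pair, so some pairs gave more than 1 count and counts are not independent molecules. A single count was worth 0.0101 to 0.0203 CPM.

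Counts were filtered with filterByExpr, scaled by TMM and fitted with glmQLFit and glmQLFTest (2-sided) in edgeR 4.0.16 under R 4.3.3, with Benjamini-Hochberg adjustment over 18252 genes. The thresholds, an adjusted p of 0.01 and a log2 fold change of 0.8, follow the study's methods. Standard errors were derived from the F statistic. The scripts were tested on simulated data. Identifiers were matched to symbols for 55665 of 63677 genes, and 23 of 24 markers were found. Gene positions and exon lengths came from GENCODE v44 lifted to GRCh37, which may differ from the annotation used for counting. Sequences were read in Python 3.11.15 from RefSeq tables.

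The genes and lists were chosen with earlier results of these data known. Named were the 10 genes, up to 6 called genes per list and direction with the largest change, the gene with the most counts of each role, and the 3 nearest genes by Euclidean distance, among genes averaging 3 or more in log2 CPM with a prior count of 2. Other genes named were chosen after their values were seen. Alternatives were RLE factors, library totals alone, DESeq2 1.42.0, glmTreat, no filter, at least 10 counts in every library, an adjusted p of 0.05, a replicate block, thinning to the smallest library and each library left out in turn. The canonical transcript length was added after seeing the data.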

Additional observations from a re-analysis of the deposited data

How the results depend on the processing

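Scaling, the test and leaving out a library moved calls near the fold threshold of 0.8, while thinning to the smallest library moved no call of the 9 tested genes. *WWTR1* was called lower at a log2 fold change of -0.80 with RLE factors (-0.8007) and with DESeq2 (-0.8008), and its values ran from -0.83 to -0.79 with a library left out. *TEAD3* was not called with library totals alone (-0.67) or with glmTreat (-0.84), and *TEAD1* ran from -0.87 to -0.54 with a library left out. *LATS1* changed sign when thinned (-0.00018) and ran from -0.077 to 0.065 with a library left out. *ANKRD1* had 1.22 with library totals alone and 0.99 to 1.10 with a library left out. The cause of these shifts was not tested.

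Of the 9 tested genes, 2 were called lower with RLE factors and with DESeq2, and 0 with library totals alone and with glmTreat. Of all 18252 tested genes, 1036 were called lower with RLE factors, 1026 with DESeq2, 709 with library totals alone and 326 with glmTreat. At the adjusted p threshold of any size, 2 to 4 were lower and 0 to 2 higher with a library left out, and 2 were higher with library totals alone, with DESeq2, with no filter and at an adjusted p of 0.05. With library totals alone 3.88% of all tested genes were called lower, and glmTreat called 326 of 18252 lower and 80 higher. Of the other Hippo genes, 1 was called lower in each of these settings, and 0 were called higher with glmTreat. At any size, 3 to 14 of them were lower and 2 to 6 higher with a library left out. The median of that list was 0.057 with library totals alone.

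Of all tested genes, glmTreat called 326 lower and 80 higher. Library totals alone gave 977 higher, so that 42.1% rather than 65.6% of calls were lower, and 2826 higher at any size. An adjusted p of 0.05 gave 2574 higher at any size, DESeq2 gave 1536 and no filter gave 2032. With a library left out, 293 to 587 were called higher, and at any size 833 to 2750 were lower and 305 to 2024 higher. Their median ran from -0.0050 to 0.018 with a library left out, with -0.0038 without miR-6133-5p replicate 1. A library left out leaves 1 in its group, so the spread then comes from the other group. Chi-square per degree of freedom between replicates was 14.3 in miControl and 50.2 in miR-6133-5p, a measure that also grows with depth. *TEAD1*, *LATS2* and *AMOTL2* missed the adjusted p threshold without a miControl library, where the miR-6133-5p spread is used, and passed it without a miR-6133-5p library.

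Replicate numbers are shared between groups, but nothing pairs the samples. With a replicate block, 2 of the 9 were higher at any size, *LATS2* and *YAP1* (edgeR adjusted p = 0.00321 for *YAP1*). Over all tested genes, the number higher at any size then went from 1452 to 2111. Differences between replicates 1 and 2 of each group correlated at 0.124 across genes, which are not independent replicates. Limits are 1 cell line, 1 control mimic and 2 libraries per group, in which no outlying library can be tested.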
